A study of Glycine max with 14 samples.

Results

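A set of 80 of the 69425 measured gene models was chosen because their transcript levels were close between 2 soybean lines, RM30-R* with black and RM38-r with brown seeds, in seed coats early in seed development and higher in RM30-R* late. The choice used 8 of the 14 RNA-Seq libraries, on a log2(RPKM + 0.5) scale after the libraries were rescaled to the same 75th percentile (RPKM, reads scaled by gene model length and library total). A gene model qualified if the lines differed by less than 0.3 at 100–200 mg seed fresh weight and if RM30-R* was above RM38-r in both pairs of libraries at 400–500 mg and in the pair from desiccating seeds. Of the 5830 models that qualified, the 80 with the highest value for the smallest of these 3 late differences were taken. The anthocyanin genes F3'5'H, DFR2, ANS2 and ANS3 were left out by name. The 80 models belong to 75 loci. They are called members here, and all line differences are RM30-R* minus RM38-r on that log2 scale.

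Total RNA came from seed coats dissected from greenhouse-grown plants. RM30-R* is a stable black-seeded revertant that carries the R* allele, in which a large CACTA transposon sits in an intron of the R gene, with the i and T alleles. RM38-r is a brown-seeded isoline with the same i and T alleles and an r allele that has a base deletion in an exon. The line comparison therefore rests on 1 line for each allele. Green seeds were taken in steps of 100 mg, the lightest at 100–200 mg and the heaviest at 400–500 mg, and seeds of 300–400 mg that had begun to desiccate formed a last stage. Each line had 2 libraries at 300–400 mg (green) and at 400–500 mg, and 1 library at each of the other 3 stages.

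The R gene encodes a MYB transcription factor of the flavonoid pathway. In soybean seed coats this pathway leads to anthocyanins, the black pigments, and to proanthocyanidins, which accumulate in brown coats. The shared early steps are run by chalcone synthase (CHS) and flavanone 3-hydroxylase (F3H), and anthocyanidin synthase (ANS) makes the coloured anthocyanidins. No function could be given for any member, because 0 of the 80 identifiers matched the gene annotation used here. The members are therefore described by identifier and by pattern.

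The libraries held 49509768 to 100643236 mapped alignments in RM30-R* and 52510464 to 120239041 in RM38-r. The 20 highest gene models took 35.3% of the summed RPKM in R125 (RM38-r, 300–400 mg) and 19.5% in R113 (RM38-r, 400–500 mg), against 6.09% to 11.0% in the other 12 libraries. R125 had the largest rescaling factor, 1.55. In 60 members every library had at least 10 reads, and in 4 members a library had 0. In these bulk samples, fewer cells of a type and less RNA per cell cannot be told apart.

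The late differences that chose the members were mostly small. The smallest of the 3 late differences had a median of 0.43 over the 80 members and ranged from 0.34 to 4.03. Only 4 members exceeded 1 in all 3 late pairs, beside 0.0408% of the 44080 gene models tested (those reaching 0.5 RPKM in 2 or more libraries), and nothing is read from this share because the same libraries made the choice. Both RM30-R* libraries lay above both RM38-r libraries at 400–500 mg in 47 members, beside 9.73% of those gene models, and this too was set by the choice. At the lower edge, Glyma12g35050.1 (0.3410) and Glyma05g07680.1 (0.3399) were the last 2 taken, and Glyma02g05240.1 (0.3397) and Glyma05g31770.1 (0.3394) were the first 2 left out, so the edge separates near-equal values.

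Levels at 200–300 mg and at 300–400 mg with green seeds were not used for the choice. The members were divided by their change up to 200–300 mg. That change is counted from the 100–200 mg libraries, which the choice had used. A total of 32 members were lower at 200–300 mg than at 100–200 mg by more than 1 on the log2 scale in the mean of the lines. They are called early-high. Another 45 changed by 1 or less and are called steady, and 3 were higher by more than 1 and are called rising. The names describe this step only, and later levels of steady members could move. In RM30-R*, the steady Glyma04g04700.1 went from 29.6 rescaled RPKM at 200–300 mg to 5.97 and 7.30 at 300–400 mg. Glyma08g15010.1 counts as rising at a change of 1.003, close to the limit. The division was made after the values were seen and is a description. Most early-high members were higher in RM30-R* already at 300–400 mg, although none passed the adjusted threshold there, so that a label of higher late only goes against the values of most of them.

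**Figure D1:**
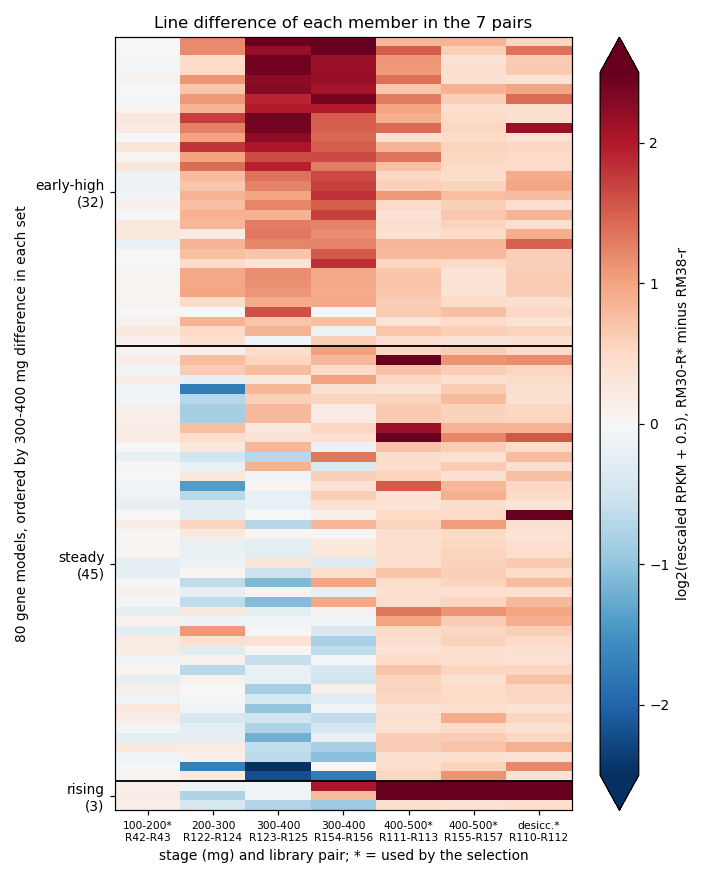
Line difference of each of the 80 members (rows) in the 7 pairs of libraries (columns), as log2(rescaled RPKM + 0.5), RM30-R* minus RM38-r, red above 0 and blue below. Pairs marked with a star were used by the selection. The 32 early-high members are all red at 200–300 mg and nearly all red at 300–400 mg, whereas the 45 steady members show both colours there.

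The 32 early-high members belong to 30 loci and were abundant at the first stage, with a median over members of 54.9 rescaled RPKM at 100–200 mg, against 2.97 in the steady members. At 200–300 mg, all 32 were above 0 (R122 over R124, 1 library for each line), with a range of 0.01 to 1.78. Over all tested gene models that were lower by more than 1 at 200–300 mg, 57.3% were above 0. At 300–400 mg, both RM30-R* libraries lay above both RM38-r libraries in 26 of the 32, beside 42.5% of the tested gene models with the same early change. In none of the 32 did both lie below, and in the other 6 the lines overlapped. Over all gene models tested 14.5% had both below. That share was not counted for those with the same early change, so nothing is read from the absence among the members. The mean of both pairs at 300–400 mg ranged from 0.26 to 2.47.

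The time course of these 32 members differed between the lines in its middle. The median change from 100–200 mg was -1.72 in R122 (RM30-R*) and -2.54 in R124 (RM38-r) at 200–300 mg. It was -1.59 and -1.81 in the RM30-R* libraries at 300–400 mg, against -3.28 and -3.25 in the RM38-r libraries. At 400–500 mg the RM30-R* libraries had -3.10 (R111) and -2.36 (R155), against -3.73 (R113) and -2.85 (R157) in RM38-r. The libraries of a line lay further apart than the lines did, and they differed in the same direction in both lines. RM30-R* was the higher in R111 with R113 and in R155 with R157, the pairs of the choice, which required this of every member. In desiccating seeds the medians were -4.77 in RM30-R* and -5.57 in RM38-r. The median line difference of these members was thus widest at 300–400 mg, a stage that the choice had not used.

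**Figure D2:**
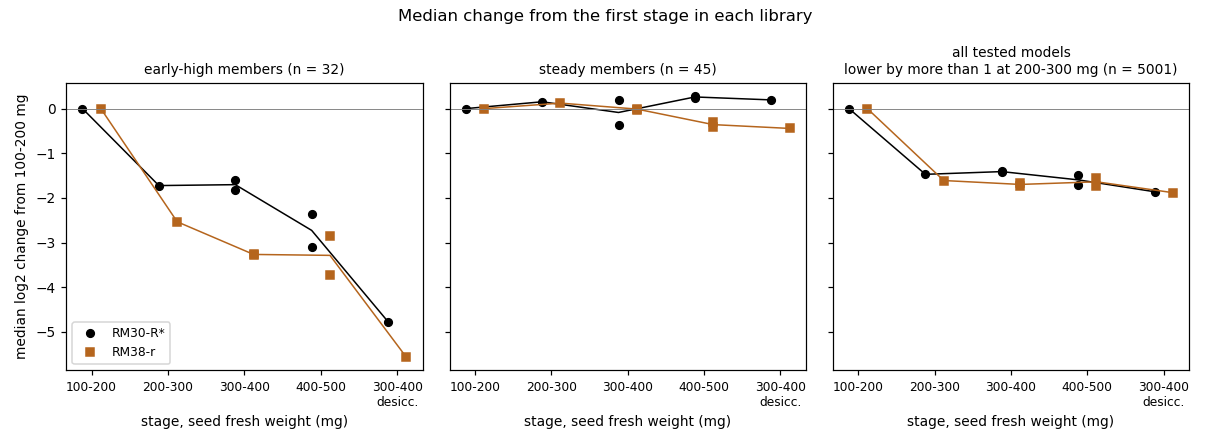
Median log2 change from the 100–200 mg stage in each library, for the 32 early-high members, the 45 steady members and the 5001 tested gene models lower by more than 1 at 200–300 mg. Points are libraries (black circles RM30-R*, brown squares RM38-r) and lines join their means. The early-high members stay near -1.6 and -1.8 in RM30-R* at 300–400 mg, against -3.3 in RM38-r, while the lines lie closer together in the 5001 models.

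Glyma10g37080.1 was the most abundant member in late RM30-R* seed coats and is early-high. It had 6895 rescaled RPKM in RM30-R* and 5980 in RM38-r at 100–200 mg, and 1708 in RM30-R* and 713 in RM38-r at 200–300 mg. Its levels at 300–400 mg were 2285 and 1361 in RM30-R*, against 438 and 481 in RM38-r, with no overlap of the lines. The difference was 1.94 ± 0.98 (SE, n = 2 libraries for each line), and limma's adjusted p was 0.76. In the libraries of the rule it had 519.9 and 757 in RM30-R* at 400–500 mg, against 196 and 527 in RM38-r, where the lines overlapped.

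Glyma16g17120.1 followed the same course at a lower level. At 100–200 mg it had 977 rescaled RPKM in RM30-R* and 985 in RM38-r. Its levels at 300–400 mg were 238 and 218 in RM30-R*, against 49.1 and 51.1 in RM38-r, a difference of 2.17 ± 0.18 (SE, n = 2 for each line) with a limma adjusted p of 0.32. On these rescaled values the libraries within a line were close, and the lines were far apart. In deposited RPKM the RM38-r libraries were less close, at 31.7 in R125 and 52.2 in R156, so the small SE depends on the scale. The 400–500 mg libraries had 87.7 and 177 in RM30-R*, against 54.0 and 96.3 in RM38-r, and the lines overlapped.

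Glyma05g29630.1 had 126 and 99.3 rescaled RPKM in RM30-R* at 300–400 mg, against 27.5 and 14.8 in RM38-r. The difference was 2.44 ± 0.37 (SE, n = 2 for each line, limma adjusted p = 0.33). Glyma11g00280.1 had 139 and 93.2 in RM30-R*, against 44.7 and 29.4 in RM38-r, a difference of 1.64 ± 0.34 (limma adjusted p = 0.39). In both members the lines did not overlap at this stage.

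The remaining early-high members named by rank, level or edge had narrower gaps. Glyma13g31840.1 at 300–400 mg had 71.5 and 51.9 rescaled RPKM in RM30-R*, against 30.3 and 21.6 in RM38-r. Glyma04g15200.1 had 16.99 and 19.0 in RM30-R*, against 8.30 and 5.03 in RM38-r. Both kept the lines apart. Glyma02g47790.1 had 156.1 and 148 in RM30-R*, against 96.6 and 50.6 in RM38-r, and Glyma20g27280.1 had 82.6 and 73.2 in RM30-R*, against 45.2 and 22.1 in RM38-r. In these, R125 was the higher of the RM38-r libraries. Glyma12g35050.1 overlapped, with 9.59 and 29.2 in RM30-R* and 4.02 and 14.9 in RM38-r. Glyma05g07680.1 overlapped too, with 3.91 and 8.85 in RM30-R* and 4.14 and 5.70 in RM38-r, a difference of 0.26 ± 0.46 (SE, n = 2 for each line, limma adjusted p = 1).

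Several early-high members cannot be counted as separate evidence. Glyma12g35050.1, Glyma12g35050.2 and Glyma12g35050.3 are models of 1 locus. Glyma16g08230.1 and Glyma16g08240.1 bear adjacent names and had closely correlated levels. So did Glyma12g34770.1 with Glyma13g35800.1, Glyma01g02060.1 with Glyma09g33880.1, and Glyma05g29630.1 with Glyma08g12750.1. Each pair had a Pearson r of at least 0.99 over the 14 libraries, which share stages and lines. Such an r does not by itself mark duplicates. Glyma13g31840.1 with Glyma10g37080.1 reached 0.994, while their log2 ratio ran from -5.62 to -1.87. Glyma16g17120.1 reached 0.993 with Glyma16g08240.1 and with Glyma16g08230.1, and its log2 ratio to Glyma16g08240.1 ran from 1.41 to 2.34. Glyma04g15200.1 with Glyma02g47790.1 (0.993), Glyma13g33720.1 with Glyma02g01110.1 (0.992) and Glyma08g12750.1 with Glyma01g02060.1 (0.991) passed 0.99 too. These identifiers were singled out after their values were seen. A read was counted at every model it aligned to, so similar models can share reads, and how many do was not tested. Among the steady members, Glyma04g15140.1 and Glyma20g07780.1 had identical values in all 14 libraries and count as 1 measurement.

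The steady members had no common direction before 400–500 mg. At 200–300 mg 18 of 45 were above 0, beside 44.3% of the tested gene models that changed by 1 or less at that step. At 300–400 mg both RM30-R* libraries lay above both RM38-r libraries in 10 of 45, beside 16.4% of those gene models, and below both in 11, beside 14.3%. The members' shares were not tested against these. The mean of both pairs ranged from -1.97 to 0.74. At 400–500 mg the lines did not overlap in 35 of the 45, with RM30-R* above, beside 9.73% of all gene models tested. This was arranged by the choice, and nothing is read from it.

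Among the highest-ranked steady members were Glyma06g04780.1 and Glyma04g04700.1 with Glyma04g04700.2, models of 1 locus. Glyma04g04700.1 had 26.3 and 10.6 rescaled RPKM in RM30-R* at 400–500 mg, against 4.07 and 4.58 in RM38-r, and 6.30 in RM30-R* against 2.51 in RM38-r in desiccating seeds. Before that it had 29.6 in RM30-R* and 17.2 in RM38-r at 200–300 mg, and 5.97 and 7.30 in RM30-R* against 3.95 and 3.88 in RM38-r at 300–400 mg. The lines did not overlap at either replicated stage, and the difference at 300–400 mg was 0.69 ± 0.18 (SE, n = 2 for each line, limma adjusted p = 0.47). Glyma06g04780.1 had 8.60 and 2.49 in RM30-R* at 400–500 mg, against 1.11 and 0.78 in RM38-r, and 1.15 and 1.65 in RM30-R* against 0.78 and 1.11 in RM38-r at 300–400 mg. R111 was the higher RM30-R* library at 400–500 mg in all 3 models.

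In several other named steady members the lines overlapped at 300–400 mg. Glyma19g30110.1 had 4.48 and 7.88 rescaled RPKM in RM30-R*, against 4.76 and 8.24 in RM38-r, so that the lines interleaved. Glyma13g28640.1 had 0.15 and 0.67 in RM30-R*, against 0.27 and 0.58 in RM38-r, and rested there on as few as 5 reads in R123. Glyma03g26060.1 had 16.3 and 53.5 in RM30-R*, against 36.1 and 26.6 in RM38-r, with the RM30-R* libraries on either side of RM38-r. Glyma09g37520.2 had 24.6 and 27.7 in RM30-R*, against 28.0 and 21.1 in RM38-r. In Glyma20g01700.1 the lines did not overlap, with 63.2 and 50.3 in RM30-R* against 46.2 and 24.4 in RM38-r, a difference of 0.74 ± 0.38 (SE, n = 2 for each line, limma adjusted p = 0.77).

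The rising members include the first and the second in rank, which the late libraries themselves decided. Glyma11g33260.1, ranked first, had 36.6 and 13.1 rescaled RPKM in RM30-R* at 400–500 mg, against 0.12 and 0.33 in RM38-r, and 12.1 in RM30-R* against 0.025 in RM38-r in desiccating seeds. In the first stages the lines were close. It had 0.99 in RM30-R* and 0.83 in RM38-r at 100–200 mg, and 19.9 in RM30-R* and 21.7 in RM38-r at 200–300 mg. The level at 300–400 mg was 0.15 and 2.23 in RM30-R*, against 0.18 and 0.17 in RM38-r. The model was thus high in both lines at 200–300 mg, low in 3 of the 4 libraries at 300–400 mg, and high again in RM30-R* alone. The steady Glyma04g04700.1 also dipped at 300–400 mg and rose again in RM30-R*, with a smaller swing.

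The low values of Glyma11g33260.1 rested on few reads. At 300–400 mg Glyma11g33260.1 had 5 reads in R123 of RM30-R*, against 4 and 7 in the RM38-r libraries. In R112 (RM38-r, desiccating) it had 1 read, with a 95% Wilson interval of 0.0045 to 0.14 rescaled RPKM. These intervals cover counting error only. The difference at 300–400 mg was 0.99 ± 0.77 (SE, n = 2 for each line, limma adjusted p = 0.91), and R154 alone was high.

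Glyma18g04960.1, ranked second, followed the same sequence. It had 4.04 rescaled RPKM in RM30-R* and 7.18 in RM38-r at 200–300 mg, and 0.018 and 0.44 in RM30-R* against 0.053 and 0.041 in RM38-r at 300–400 mg. Later, at 400–500 mg, it reached 20.2 and 3.87 in RM30-R*, against 0.040 and 0.056 in RM38-r. In desiccating seeds it had 6.08 in RM30-R* and 0 reads in RM38-r, where 3 reads would be 0.044 rescaled RPKM. R154 was again well above the other 3 libraries at 300–400 mg, and R111 was again above R155. The low values rested on 1 read in R123, 2 in R125 and 3 in R156 at 300–400 mg, and on 3 in R113 and 5 in R157. The difference at 300–400 mg was 0.35 ± 0.32 (SE, n = 2 for each line, limma adjusted p = 0.95). At 100–200 mg it had 0.35 in RM30-R* and 0.24 in RM38-r, where the pseudocount weighs on the difference. With a pseudocount of 0.1 or an early limit of 0.2 the rule did not choose Glyma18g04960.1.

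The third rising member, Glyma08g15010.1, differed from these. It had 22.6 and 28.0 rescaled RPKM in RM30-R* at 300–400 mg, against 38.0 and 52.9 in RM38-r, so that RM30-R* lay below RM38-r. The 400–500 mg libraries had 29.3 and 37.3 in RM30-R*, against 22.1 and 29.0 in RM38-r. On these rescaled values the order of the lines had turned, by a smaller amount than at 300–400 mg. In deposited RPKM the 300–400 mg libraries had 23.0 in R123 and 29.4 in R154, against 24.6 in R125 and 54.0 in R156. The lines overlapped there, so the turn depends on the scale.

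**Figure D3:**
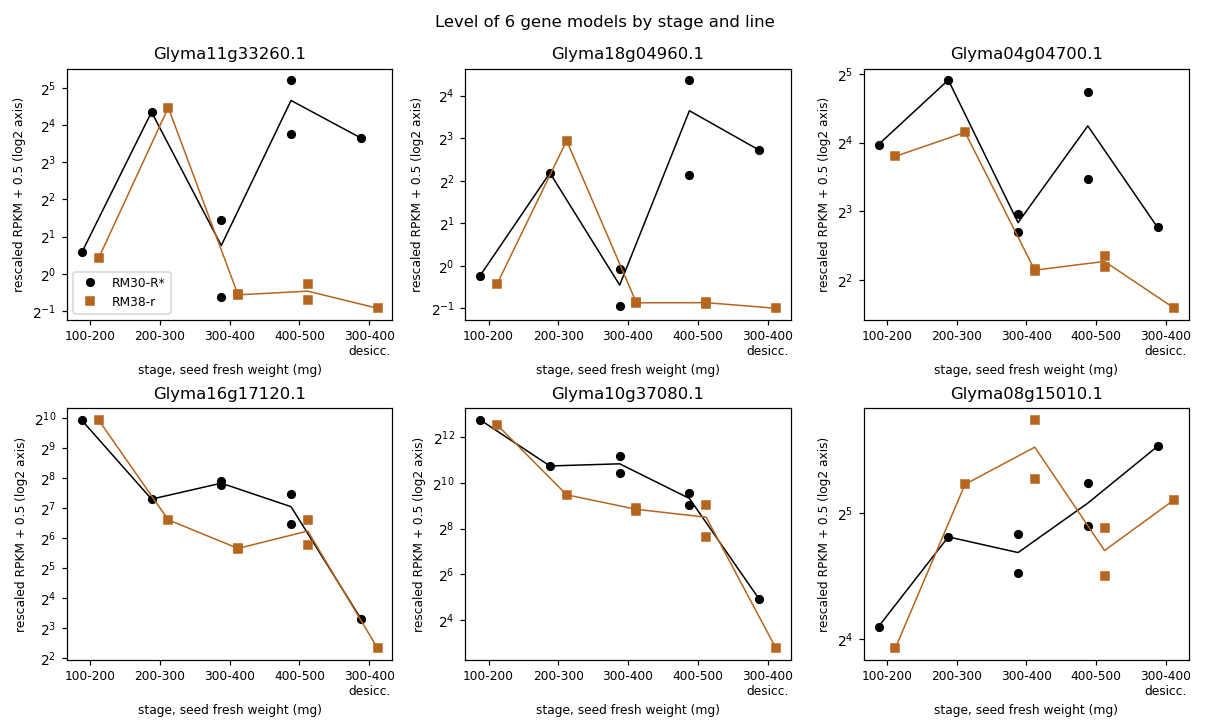
Rescaled RPKM + 0.5 (log2 axis) of 6 members by stage. Black circles are RM30-R* libraries, brown squares RM38-r libraries, and lines join the stage means. Glyma11g33260.1 and Glyma18g04960.1 show a peak in both lines at 200–300 mg and another in RM30-R* at 400–500 mg. Glyma04g04700.1 shows these peaks too, with a smaller swing. Glyma16g17120.1 and Glyma10g37080.1 decline from the first stage with the lines apart at 300–400 mg, and Glyma08g15010.1 is lower in RM30-R* at 300–400 mg.

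The line difference at 300–400 mg was tested with limma on the 4 libraries of that stage. It called 0 of 44080 gene models at an adjusted p under 0.05 (0%), with 3767 at an unadjusted p under 0.05. Of the 80 members 78 could be tested, since Glyma09g37890.1 and Glyma09g07830.1 stayed under the filter, and 0 were called, with a smallest adjusted p of 0.32. A fit of the 8 libraries of both replicated stages called 1 gene model, which was no member. These results do not show that the lines were alike at this stage.

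Without adjustment, 22 members were higher in RM30-R* with p under 0.05, beside 4.98% of the gene models tested, and 3 were lower, beside 3.56%. The median difference of the 78 members was 0.46, beside 0.025 over all gene models tested. The 3 lower ones, picked out by this count, were Glyma13g04480.1, Glyma03g34960.1 and Glyma08g15010.1. Glyma13g04480.1 had 1.28 and 3.12 rescaled RPKM in RM30-R*, against 7.62 and 11.6 in RM38-r. On the deposited scale, without rescaling, all gene models tested shifted to a median of 0.31, and of those with an unadjusted p under 0.05, 87.0% were higher in RM30-R*, against 58.3% after rescaling. Without R125 the majority turned, with 41.3% higher (2101 higher and 2987 lower) on the rescaled values, so the balance of higher and lower gene models rests on that library. The members lower at this p numbered 1 without R123 or without R156, and those higher numbered 18 to 21 with any 1 library left out.

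Over all 80 members, both RM30-R* libraries lay above both RM38-r libraries at 300–400 mg in 36, beside 18.8% of the gene models tested, and below both in 12, beside 14.5%. All 12 of these had both RM30-R* libraries above at 400–500 mg, as the choice favoured, and 1.22% of the gene models tested turned in this way. The members' count was as large in the pair without R125, the library of uneven composition. R123 over R125 exceeded 1 in 24 members, beside 3.87%, and R154 over R156 exceeded 1 in 28, beside 3.81%. At 200–300 mg, 50 members were above 0, beside 45.5%, and 11 exceeded 1, beside 1.43%, in a pair with no replicate.

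**Figure D4:**
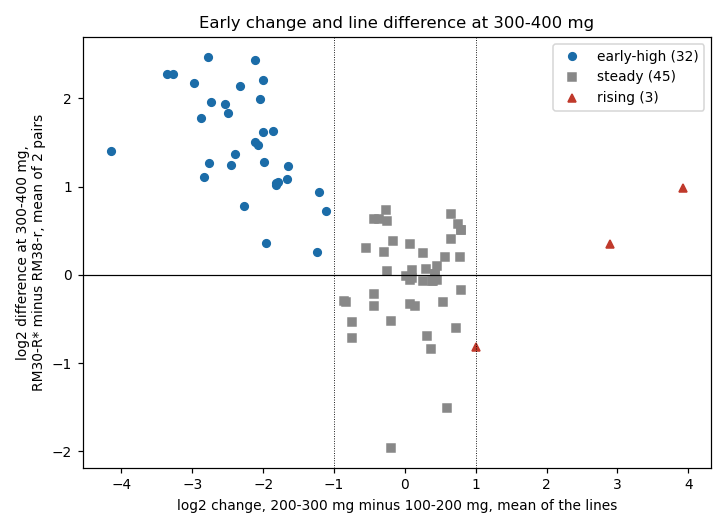
Change of each of the 80 members between 100–200 and 200–300 mg (x axis, log2, mean of the lines) and its line difference at 300–400 mg (y axis, log2, RM30-R* minus RM38-r, mean of 2 pairs). Blue circles are early-high, grey squares steady and red triangles rising members, and dotted lines mark changes of -1 and 1. All 32 early-high members lie above 0, from 0.26 to 2.47, and the steady members lie on both sides.

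The pathway genes give a scale for these values. In the 300–400 mg fit, 9 of 13 anthocyanin pathway genes were higher in RM30-R* at an unadjusted p under 0.05, beside 4.98% of the gene models tested. At that p 0 were lower, beside 3.56%, and 0 passed the adjusted threshold. Their median difference was 1.65. CHI1A, UGT78K1 and UGT78K2 lay below 0, at -0.15, -0.17 and -0.40. F3'5'H, among the 9, was near the floor, with 0.078 and 0.13 rescaled RPKM in RM30-R* against 0.019 and 0.020 in RM38-r. CHS7, a chalcone synthase gene, had 206.5 and 184 rescaled RPKM in RM30-R* at 300–400 mg, against 63.6 and 43.4 in RM38-r, after 493 in each line at 100–200 mg. F3H had 117 and 122.5 in RM30-R*, against 40.9 and 35.0 in RM38-r. CHS7 and F3H, like most early-high members, were far apart between the lines at 300–400 mg. The R gene itself had 0.31 and 0.12 in RM30-R*, against 0.93 and 1.87 in RM38-r, a difference of -1.38 (limma adjusted p = 0.43). The left-out genes F3'5'H, ANS3 and ANS2 would have ranked 3, 4 and 5 among the members, and DFR2 exceeded the early limit with a difference of 0.40 at 100–200 mg.

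By the chromosomes given in their names there were 1 to 8 loci on each, and 1 locus on a scaffold. Most were on chromosomes 13 (8 loci, beside 2345 loci tested there, 0.341%) and 9 (6 loci, beside 1803, 0.333%). The other chromosomes had 0.0582% to 0.283%. The chromosome 9 count includes the 2 members under the filter. The R gene, Glyma09g36990.1, bears a chromosome 9 name too, and Glyma09g35080, Glyma09g37520 and Glyma09g37890 have the nearest names. Whether sequence near R differs between the lines was not tested. The gene models measured 135 to 4020 nucleotides, as recovered from the values, with a median of 1057, and 5 were under 200. On a model this short a small number of reads makes a large RPKM.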

How the data were processed

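Seed coat RNA-Seq libraries (14, 7 for each line) were grouped by line and stage from the labels. Reads of 100 nt had been aligned by the authors to soybean gene models (Bowtie 1, at most 3 mismatches, reads with more than 25 alignments discarded), and the deposited values are RPKM. One incomplete line was left out, and 0 value columns lacked a library.

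RPKM columns were rescaled to equal 75th percentiles (zeros included, target their mean) and taken as log2(RPKM + 0.5), which understates the change of low genes. Members and lists were chosen with earlier results of these data known. Named members were the 10 highest by rank, the 10 highest by mean late level in RM30-R*, and those at the edge of the choice. Lists by function were void, since no identifier matched the annotation, and no sequence is shown.

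The line difference at 300–400 mg was tested with limma 3.58.1 (R 4.3.3; trend, two-sided, Benjamini-Hochberg threshold 0.05) on the 44080 models that reached 0.5 RPKM in 2 or more libraries, and tested on simulated data, where it returned the sizes of the changes and called them when the spread was narrow and even, but called none when the spread varied between models. P-values measure only the spread between these libraries. Low RPKM values were whole multiples of 1 read in 11620 of 11620 low models (tolerance 0.001), which gave reads and mapped totals; intervals are 95% Wilson. A count model was not run on these reads. Alternatives were other scales, pseudocounts (0.1 and 1), filters, fits and each library left out. Python 3.11.15 with pandas 2.3.3 was used.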

Additional observations from a re-analysis of the deposited data

Results flagged for a closer look

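In 12 members both RM30-R* libraries lay below both RM38-r libraries at 300–400 mg and above both at 400–500 mg. Over all gene models tested, 14.5% had both RM30-R* libraries below at 300–400 mg, close to the share of the members. The turn was not tested, the late direction was set by the choice of members, and all 12 were picked out by this pattern. The difference at 300–400 mg was widest in Glyma13g04480.1 (-1.97), with Glyma03g34960.1 (-0.84), Glyma08g15010.1 (-0.82), Glyma20g32050.1 (-0.72), Glyma15g36010.1 (-0.70) and Glyma15g05460.1 (-0.60) after it. It was smaller in Glyma07g27380.1 (-0.53), Glyma18g01910.1 (-0.52), Glyma15g24730.1 (-0.35), Glyma14g39290.1 (-0.33), Glyma07g21020.1 (-0.31) and Glyma02g05390.1 (-0.30). On the deposited scale 2 members had both RM30-R* libraries below at 300–400 mg, and R125 had the largest rescaling factor, so this pattern depends on the scale.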

How the results depend on the processing

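Which models are members depended on the scale. Of the 80, the rule chose 49 again on deposited RPKM, 43 with a pseudocount of 0.1 and 29 when the early limit also held at 200–300 mg, and 31 were chosen under deposited RPKM and both pseudocounts together. It chose 62 to 78 under the other alternatives, one of which (74, percentile of the models above 0) was added after seeing the data. The limma count stayed at 0 in 14 of 15 alternatives, and the 8-library fit called 1. The members' median difference at 300–400 mg (0.46) was 0.66 on deposited RPKM, 0.73 with a pseudocount of 0.1 and 0.28 to 0.58 with 1 library left out. The count of members with both RM30-R* libraries below at that stage (12) was 2 on deposited RPKM, where the share of gene models below was not counted. Both lay above in 41 of 80 members on deposited RPKM, beside 40.4% of all gene models tested. On the main scale it was 36, beside 18.8%, and the other scales tried gave 36 too. In the steady members it was 15 of 45 on deposited RPKM, beside 40.5% of the tested gene models that changed by 1 or less. The main scale gave 10 of 45, beside 16.4%. Most of the distance from the background was thus lost on deposited RPKM. The early-high counts kept to 31 or 32 at 200–300 mg and 26 or 27 at 300–400 mg under the 4 scales tried, all added after seeing the data. Their background did not keep still. At 300–400 mg the share of tested gene models with the same early change was 48.8% on deposited RPKM, against 42.5% on the main scale. An unchanged count is therefore not an unchanged excess.

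With a library left out, 6 named members changed sign at 300–400 mg besides Glyma09g37520.2. Without R154, Glyma11g33260.1 was at -0.05, Glyma18g04960.1 at -0.08, Glyma05g07680.1 at -0.28, Glyma13g28640.1 at -0.49, Glyma19g30110.1 at -0.45 and Glyma03g26060.1 at -0.90. Without R123 they were 2.02, 0.78, 0.80, 0.35, 0.31 and 0.78 in the same order. Without R156 they were 0.18 and 0.30 for Glyma13g28640.1 and Glyma19g30110.1, and -0.10 for Glyma09g37520.2. Without R125, Glyma03g26060.1 was at 0.15. On deposited RPKM Glyma13g28640.1 was at 0.04, Glyma19g30110.1 at 0.24 and Glyma03g26060.1 at 0.28. The cause was not tested. With the replicate number as a block 0 models were called in the 4-library fit and 29 members were higher at an unadjusted p under 0.05, against 22. The numbers were given in accession order. They fall on the same libraries as the paper's numbers for its independent extractions, which the paper does not describe as paired between lines. The same-numbered libraries correlated at 0.18 in their deviations at 300–400 mg, so no pairing is established. With 2 libraries for each line at most, depth and replicate number limit every value here.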
